A study of Mus musculus with 3 samples.

Results

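This account covers 58 genes of 17931 in a single-cell RNA table of the mouse ocular surface. They encode enzymes of the families that build mucin-type O-glycans and N-glycans, together with C1galt1c1 and Cmas. Some members act on lipids or proteoglycans instead, which is stated below for only some of them. Members were taken by symbol (the Galnt, B3gnt, B4galt, B3galt, St3gal, St6gal, Gcnt, Mgat and Fut families, with C1galt1, C1galt1c1 and Cmas). No measured value entered the rule, but the symbols were chosen with earlier results of these data known. By role they were 11 GalNAc transferases of the Galnt family, 3 genes for O-glycan cores and 8 for chain extension and I branching. The others were 11 galactosyltransferases, 5 genes for N-glycan branching, 7 fucosyltransferases and 13 for sialylation. Symbols of like spelling that the rule did not take, such as Mgat4b and B3gntl1, were read with the other genes of the pathway. Galnt5, Gcnt1, Gcnt3 and Fut7 were not analysed here.

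Mucin-type O-glycans begin in the Golgi when a Galnt enzyme joins N-acetylgalactosamine to a serine or threonine. C1galt1 then adds galactose to form core 1, for which C1galt1c1 is the dedicated chaperone, and sialyltransferases or further sugars extend or cap the chain. N-glycans arrive on the protein as a preformed tree that is trimmed, and the Mgat enzymes then start new branches, which galactose, fucose and sialic acid complete. On the ocular surface these sugars sit on membrane mucins at the tips of the outermost cells and form much of the glycocalyx that meets the tear film.

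Corneal epithelium of C57BL/6J mice, for which the labels name no treatment or transgene, was freed with an enzyme and dissociated with trypsin. Males of 20 weeks gave library 1 (2 mice, 4 corneas), females of 11 weeks gave library 2 (2 mice, 4 corneas) and males of 10 weeks gave library 3 (7 mice, 7 corneas). Single cells were captured with the 10x Genomics 3′ kit, which reads 1 end of each transcript and counts each molecule once by its unique molecular identifier (UMI). The libraries held 9488, 11273 and 17350 cells, with medians of 16159.5, 13232 and 8334 UMIs per cell. Libraries differ in age, pooling and, for library 2, sex, so they were compared by values alone, and p-values below measure the spread over 3 pooled libraries.

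The deposited labels sort the cells into 8 classes, read here as limbal (LSC), basal, TAC1 and TAC2, wing, superficial (Squam), conjunctival (Conj) and immune. Levels are CPM (the UMI counts of a class in a library divided by their total and brought to the usual common size), scaled over the 21 epithelial sums by trimmed means (TMM). Gpha2, Mki67, Krt78 and Krt4 were highest under the fitting label, while 2 marker lists summed highest in another class. Gpha2, a limbal stem cell marker, averaged 2123 CPM in limbal cells and between 21.7 and 105 in the other epithelial classes. Mki67, a proliferation marker, averaged 280.3 in TAC2 cells and 36.0 in limbal cells, the next class. Krt78 was highest in superficial cells at 478.7 ± 32.0 (SD, n = 3), and Krt4, a mucosal keratin, was highest in conjunctival cells at 3645 ± 1025 (SD, n = 3). Krt13 and Krt7, also on the conjunctival list, were higher in superficial cells (9661 and 1073) than in conjunctival cells (7365 and 696). The 5 limbal markers summed higher in conjunctival cells (29258) than in limbal cells (12618), with Krt15 at 28549 in conjunctival cells. The 4 basal markers summed to 18688 in basal cells and 19470 in wing cells. Pairs of libraries shared 32, 57 and 53 cell barcodes. Counts were summed over the cells of a class. Such sums do not separate fewer cells that carry a transcript from fewer transcripts per cell. Shares of cells that carry a member were not computed from the counts per cell.

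The 58 members ranged from 2 UMIs in all to 106891, and 38 had at least 500. Of those 38, 14 had their highest mean in conjunctival cells and 12 in superficial cells, where 11.0% and 36.3% of all genes of that depth peaked. With each class scaled to its own total, these counts were 12 and 7. Conjunctival cells did not overlap the next class over the 3 libraries for 10 of the 14 members, as for 427 of the 1252 genes of that depth that peaked there. Superficial cells did not for 9 of the 12, as for 3049 of 4151 genes, a like share. Basal cells were the highest class of 5 members, wing cells of 3, limbal and TAC1 cells of 2 each and TAC2 cells of 0. The map of levels by class and library shows both patterns as bright blocks on the right.

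**Figure D1:**
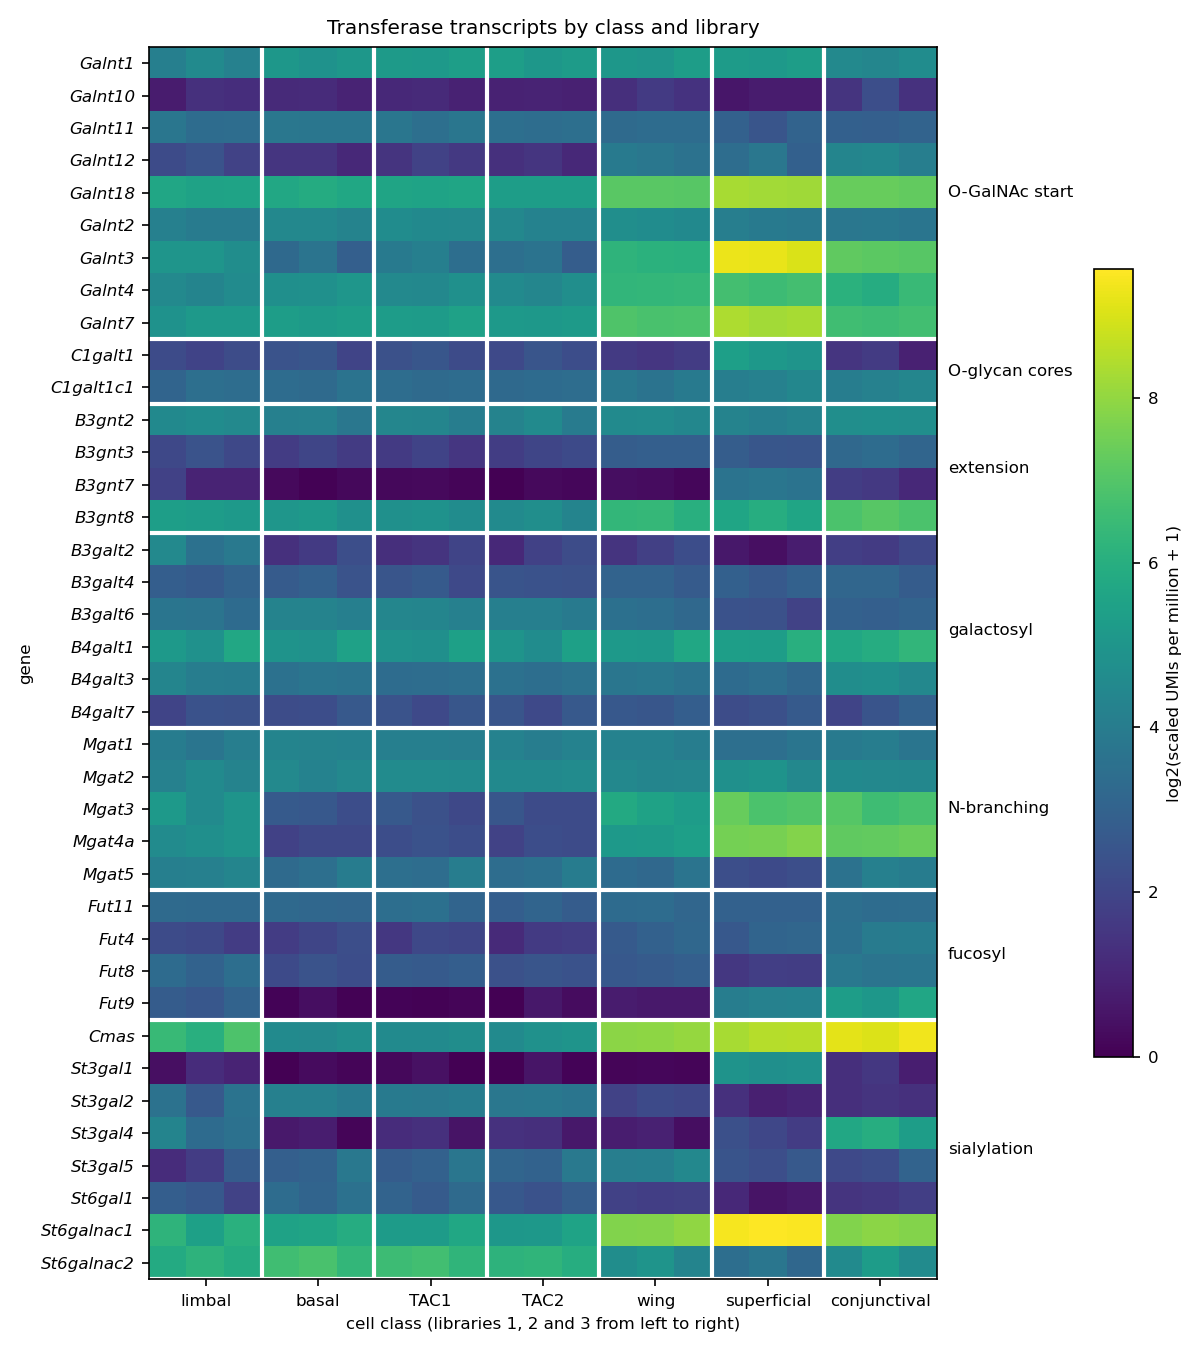
Levels of the 38 members with at least 500 UMIs, as log2(scaled CPM + 1), in 7 epithelial classes with libraries 1, 2 and 3 side by side and genes grouped by role. Galnt3 and St6galnac1 are brightest in superficial cells, Cmas in conjunctival cells, and St6galnac2 in the basal and TAC classes on the left.

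Promoter windows from RefSeq (GRCm38.p6, 250 bases before to 50 after a start) were found for 41 of the 58 members, at 58 starts. Windows of 6 members are shown because their transcripts differed most between superficial and basal cells: the 4 with the largest increase and the 2 with the largest decrease among members with a window and at least 100 UMIs in both classes. For genes with several starts the most upstream is given. Each runs 5′ to 3′ on the gene's strand, with GC boxes (GGGCGG, either strand) in capitals. No AP-1 motif (TGANTCA, either strand) lay in these 6 windows.
Mgat4a, minus strand, chr1:37540967-37541266: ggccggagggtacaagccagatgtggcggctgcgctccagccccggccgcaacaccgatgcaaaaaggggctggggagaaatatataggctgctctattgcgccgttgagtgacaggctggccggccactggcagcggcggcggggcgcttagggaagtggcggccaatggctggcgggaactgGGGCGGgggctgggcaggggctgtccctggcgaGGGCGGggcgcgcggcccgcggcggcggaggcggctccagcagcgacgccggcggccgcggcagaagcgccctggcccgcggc
Galnt3, minus strand, chr2:66124744-66125043: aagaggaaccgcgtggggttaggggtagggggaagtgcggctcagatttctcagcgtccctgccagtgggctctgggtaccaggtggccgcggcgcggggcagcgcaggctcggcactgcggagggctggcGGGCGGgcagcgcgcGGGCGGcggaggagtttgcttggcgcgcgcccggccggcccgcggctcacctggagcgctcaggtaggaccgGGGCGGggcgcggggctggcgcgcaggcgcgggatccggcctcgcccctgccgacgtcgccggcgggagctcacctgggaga
Cmas, plus strand, chr6:142756436-142756735: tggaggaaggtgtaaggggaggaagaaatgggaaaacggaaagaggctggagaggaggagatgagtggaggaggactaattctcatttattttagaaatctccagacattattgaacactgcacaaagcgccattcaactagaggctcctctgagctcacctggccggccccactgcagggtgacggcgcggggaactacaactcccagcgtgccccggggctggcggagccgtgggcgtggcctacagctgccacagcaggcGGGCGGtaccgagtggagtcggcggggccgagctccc
C1galt1, plus strand, chr6:7844974-7845273: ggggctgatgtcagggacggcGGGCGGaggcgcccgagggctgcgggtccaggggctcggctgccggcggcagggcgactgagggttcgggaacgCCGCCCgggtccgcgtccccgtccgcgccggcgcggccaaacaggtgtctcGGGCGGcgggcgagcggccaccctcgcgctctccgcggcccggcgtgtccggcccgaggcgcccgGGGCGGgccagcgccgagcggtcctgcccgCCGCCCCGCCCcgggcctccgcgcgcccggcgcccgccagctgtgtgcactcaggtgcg
B3galt6, minus strand, chr4:155992629-155992928: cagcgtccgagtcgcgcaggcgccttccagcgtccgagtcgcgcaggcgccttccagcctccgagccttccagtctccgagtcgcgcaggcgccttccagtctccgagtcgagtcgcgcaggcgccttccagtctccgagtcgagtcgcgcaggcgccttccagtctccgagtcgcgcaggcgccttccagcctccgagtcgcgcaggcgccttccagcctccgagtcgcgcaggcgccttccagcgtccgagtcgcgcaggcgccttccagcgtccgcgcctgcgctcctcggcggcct
Mgat5, plus strand, chr1:127204736-127205035: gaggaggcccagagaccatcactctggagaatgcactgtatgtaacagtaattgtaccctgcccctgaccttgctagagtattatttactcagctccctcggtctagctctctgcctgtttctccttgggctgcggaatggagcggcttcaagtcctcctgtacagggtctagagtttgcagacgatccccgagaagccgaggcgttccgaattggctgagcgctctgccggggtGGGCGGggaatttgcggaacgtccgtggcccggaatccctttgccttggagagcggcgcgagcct

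C1galt1 had 6 GC boxes in its window, Galnt3 had 3, Mgat4a 2, Cmas and Mgat5 1 each, and B3galt6 had 0. GC boxes were present in 60.3% of the members' windows and in 35.7% of all 32851 windows. Median GC content was 62.3% in the members' windows and 52.7% in all. An AP-1 motif lay in 5.17% of the members' windows (Mgat4a at its other start, Galnt16 and St6gal1) and in 7.81% of all. The E box CACGTG lay in 6.90% and 7.15%, with members B3galt2, B3galt5, B3gnt7 and St6galnac3. TATAAA lay in none of the 58 members' windows and in 13.6% of all windows. These are matches of letters, with no test.

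Classes were compared within libraries on summed UMIs with edgeR's quasi-likelihood test, library as a block. The threshold was a Benjamini-Hochberg adjusted p under 0.05 over all genes tested. Standard errors (SE) were derived from that test, as the absolute log2 fold change over the square root of its F statistic. From basal to wing cells 23 of 42 members tested rose and 11 fell, where 77.6% of all genes tested were called (38.8% higher, 38.7% lower). From wing to superficial cells 18 of 41 rose and 19 fell, against 79.7% of all genes called (37.9% higher, 41.8% lower). Over the whole path, superficial against basal, 20 of 41 rose and 15 fell, against 86.6% called (41.3% higher, 45.2% lower). Of the members tested 80.95%, 90.2% and 85.4% were called in these comparisons, and the median log2 fold change of the members was 0.34, -0.17 and 0.41 beside -0.02, -0.10 and -0.11 for all genes. These 3 comparisons share groups, so their values are given side by side and not as separate support.

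Superficial sums had TMM factors between 0.474 and 0.502, and scaling by library totals alone moved the median of all genes by -0.98 from wing to superficial and by -1.15 from basal to superficial on the log2 scale. Under that scaling the split was 12 higher and 28 lower from wing to superficial, and 15 higher and 23 lower from basal to superficial. Changes below are relative to the TMM reference, and members whose direction turns with library totals are named where they appear. The median mitochondrial share was 1.06% in superficial, 1.56% in wing and 1.90% in basal cells, and its part in the results was not tested.

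Of 9 GalNAc transferases tested, 7 rose and 1 fell from basal to wing cells, and 4 rose and 4 fell from wing to superficial cells. Galnt3, known for its action on the phosphate hormone FGF23, stood at 8.73, 11.9 and 6.42 CPM in basal cells, 72.7, 67.6 and 66.1 in wing cells and 619, 612 and 516 in superficial cells of libraries 1, 2 and 3. The layers did not overlap at either step, and every library rose at both. The steps were log2 fold change 2.90 ± 0.15 (SE), adjusted p = 1.70e-05, and log2 fold change 3.02 ± 0.07 (SE), adjusted p = 2.96e-15. Galnt7, which prefers peptides that already carry a GalNAc, read 39.00, 35.9 and 39.2 in basal, 121, 112 and 115 in wing and 331, 297 and 319 in superficial cells, again with no overlap (1.55 and 1.39 on the log2 scale). Galnt18 read 52.8, 58.8 and 51.5, then 139, 139 and 135, then 319.8, 300.3 and 292. Its first step was 1.29 and its second 1.08, but with library totals alone the second came to 0.11 and missed the threshold.

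Galnt12 and Galnt4 rose mainly at the first step. Galnt12 read 1.75, 1.81 and 1.14 in basal, 14.1, 12.9 and 11.3 in wing and 9.65, 12.8 and 6.64 in superficial cells (2.98 from basal to wing, adjusted p = 9.25e-11). The superficial range overlapped the wing range, and the second step was a small fall (-0.49). Galnt4, which like Galnt7 is known to act on glycopeptides, rose by 1.46 from basal to wing cells, and its superficial minus wing value of 0.26 turned to -0.72 with library totals alone. Galnt1 and Galnt2, broadly expressed initiating enzymes, did not follow. Galnt1 read 32.3, 28.2 and 32.6 in basal and 36.5, 33.9 and 39.1 in superficial cells, which stood just apart (0.12 ± 0.08, not past the threshold, and -1.04 with library totals alone). Galnt2 fell to 16.1, 14.4 and 13.3 in superficial cells from 25.4, 24.1 and 22.5 in wing cells, and Galnt11 to 6.89, 4.77 and 7.22 from 8.92, 9.35 and 9.53.

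Shares within the family need no scaling between classes. Galnt3 made up 4.59% ± 1.36 (SD, n = 3) of Galnt UMIs in basal cells, 14.2% ± 0.534 in wing cells and 42.5% ± 2.47 in superficial cells. Galnt1 went from 15.8% ± 1.39 to 6.96% ± 0.906 and 2.67% ± 0.295 over the same layers. Each of these steps had the same sign in 3 of 3 libraries, and an exact sign-flip test over 3 libraries cannot go below p = 0.25, the value found. Galnt7 stayed between 18.2% in limbal and 23.9% in wing cells. Galnt18 held 22.2% to 29.6% in every epithelial class.

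**Figure D2:**
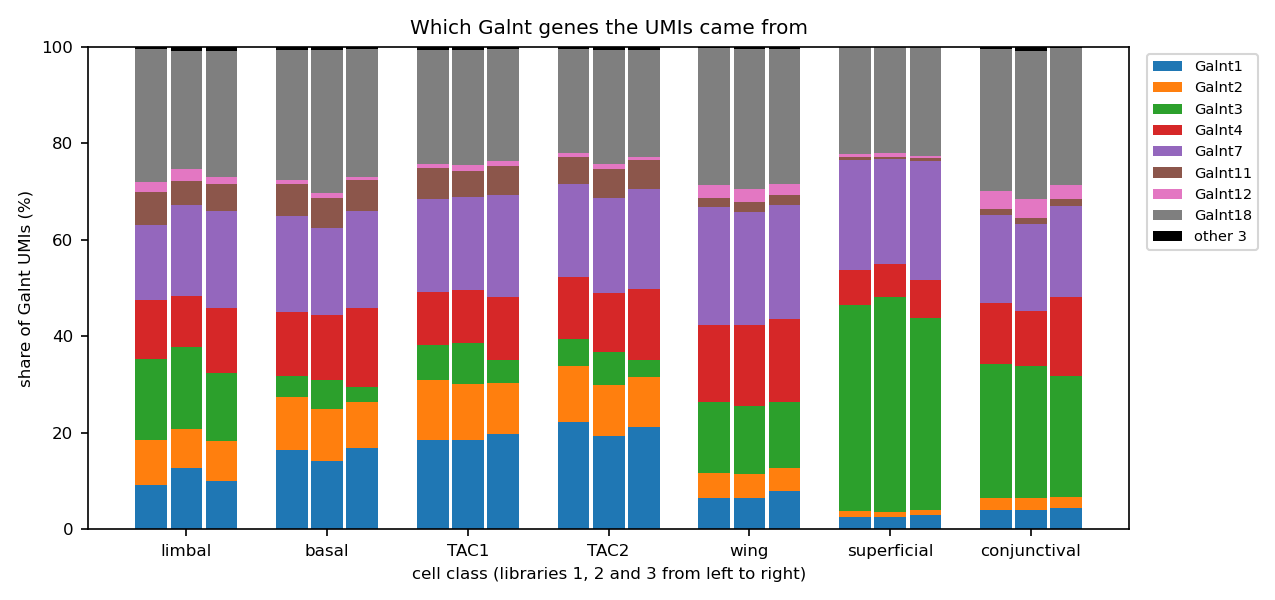
Share of all Galnt UMIs (%) that came from each Galnt gene, as stacked bars for 7 epithelial classes with libraries 1, 2 and 3 side by side. The green band, Galnt3, widens from 4.59% in basal to 42.5% in superficial cells and stands at 26.8% in conjunctival cells.

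The core 1 enzyme was high in the outermost of the 3 layers alone. C1galt1 read 4.43, 4.91 and 2.93 CPM in basal, 2.11, 1.83 and 2.23 in wing and 40.7, 33.2 and 29.6 in superficial cells. It was lowest in wing cells in every library, and superficial cells stood far above both inner layers without overlap. It fell from basal to wing (log2 fold change -1.02 ± 0.17 (SE), adjusted p = 2.49e-04) and rose from wing to superficial (log2 fold change 3.99 ± 0.11 (SE), adjusted p = 2.84e-14). Its chaperone C1galt1c1 read 9.45, 8.86 and 11.5 in basal, 13.1, 11.4 and 13.9 in wing and 16.1, 17.5 and 20.4 in superficial cells. The superficial minus wing value of the chaperone was 0.43 and turned to -0.54 with library totals alone. B3gnt6, the core 3 enzyme, had 24 UMIs in all classes together and was not tested.

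Chain extension genes add N-acetylglucosamine for poly-N-acetyllactosamine, and 3 of 6 tested rose and 1 fell from basal to wing cells, then 1 of 5 rose and 3 fell from wing to superficial. B3gnt7, known for keratan sulfate chains, read 0.187, 0.0341 and 0.159 in basal, 0.29, 0.235 and 0.122 in wing and 11.4, 12.4 and 11.5 in superficial cells. All superficial values lay above all inner ones (log2 fold change 5.72 ± 0.21 (SE), adjusted p = 9.58e-13, from 495 and 54 UMIs). B3gnt8 peaked in wing cells, with 31.9, 33.7 and 26.5 in basal, 80.3, 82.4 and 65.3 in wing and 47.99, 61.8 and 48.3 in superficial cells. It rose at the first step (1.25) and fell at the second (-0.59), while its superficial minus basal value of 0.66 turned to -0.50 with library totals alone. B3gnt2 read 22.9, 23.8 and 20.8 in wing and 18.4, 16.7 and 18.5 in superficial cells, just apart. B3gnt4 had 40 UMIs in basal cells and 0 in superficial cells, and was at least 6.06-fold lower there against a floor of 3 UMIs over the class.

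Among galactosyltransferases, 4 of 8 tested rose and 2 fell from basal to wing cells, and 2 of 7 rose and 4 fell from wing to superficial. B4galt1, the widely expressed enzyme of N-acetyllactosamine, read 28.8, 27.9 and 43.4 in basal, 34.7, 32.9 and 50.6 in wing and 40.3, 39.5 and 64.7 in superficial cells. It was higher at each step within 3 of 3 libraries (0.19, then 0.22), although the layers overlap across libraries, with library 3 the highest in each. The second value turned to -0.76 with library totals alone. B3galt6, which builds the linker of proteoglycans, fell at both steps, from 18.4, 18.5 and 16.6 through 10.5, 10.04 and 8.49 to 4.34, 4.21 and 2.67 (log2 fold change -2.38 ± 0.14 (SE), adjusted p = 9.39e-11 over the whole path). B3galt5, known for type 1 chains, had 2 UMIs in basal cells, 179 in wing and 170 in superficial cells, where it read 4.895, 5.34 and 2.15. The ratio of superficial to basal was 187 with a 95% exact counting interval of 51.0 to 1556. That interval pools the UMIs of the 3 libraries and leaves out the spread between libraries. B3galt2 fell to 0.552, 0.323 and 0.716 in superficial cells from 1.73, 2.48 and 3.75 in wing cells (-2.34).

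N-glycan branching split between its enzymes. Of 5 tested, 2 rose and 2 fell from basal to wing cells, and 3 rose and 2 fell from wing to superficial. Mgat4a, which starts an outer branch, read 2.65, 3.17 and 3.24 in basal, 33.9, 35.9 and 40.9 in wing and 189.9, 191 and 222 in superficial cells. The layers stood apart in every library (log2 fold change 3.56 ± 0.07 (SE), adjusted p = 1.29e-12, then 2.39). Mgat3, which adds the bisecting residue, read 5.49, 5.15 and 3.78 in basal, 55.1, 44.8 and 37.5 in wing and 159, 113 and 124 in superficial cells. It rose by 3.20 and then 1.48, with library 1 the highest in each of these layers. Mgat5, which starts the branch that often carries poly-N-acetyllactosamine, went down instead, from 8.85, 10.2 and 15.1 in basal and 9.06, 8.44 and 11.9 in wing to 3.93, 3.48 and 3.97 in superficial cells. The superficial values lay below those of every other epithelial class. Mgat1, the entry step, fell from 18.1, 17.7 and 15.8 to 10.2, 10.2 and 12.2, and Mgat2 read 27.03, 29.03 and 21.1 in superficial cells against 20.9, 19.5 and 20.2 in wing cells (0.28, turning to -0.70 with library totals alone).

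**Figure D3:**
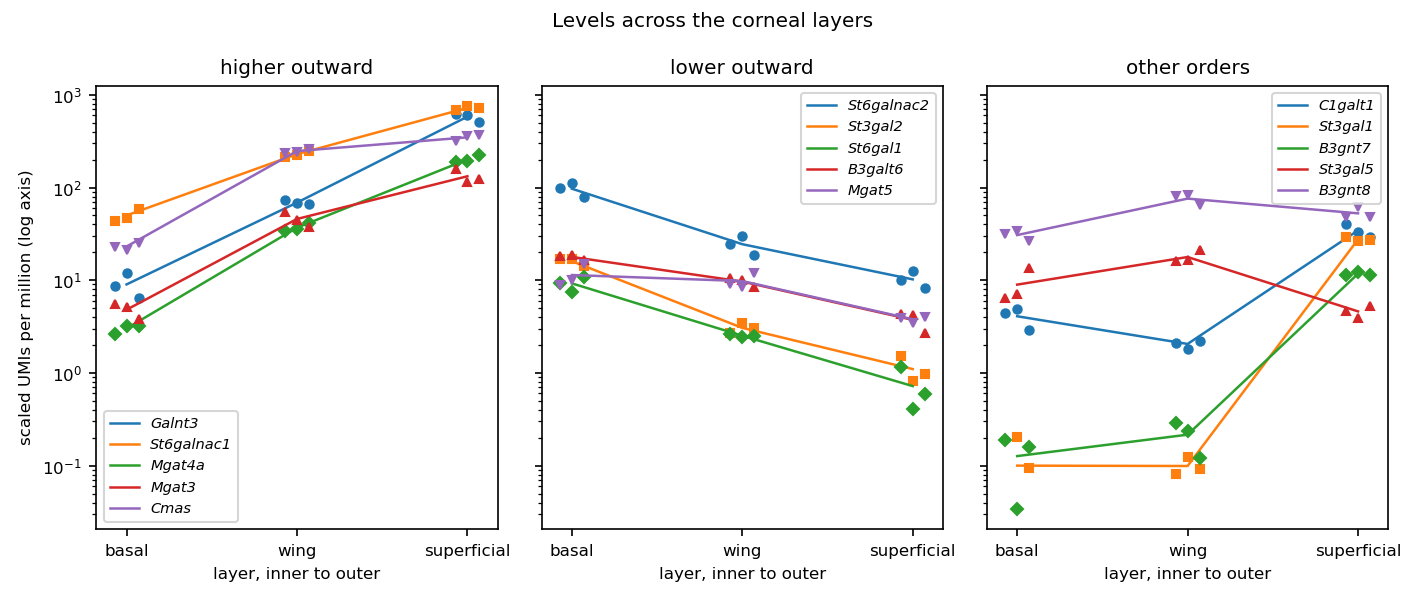
Levels in scaled CPM (log axis) of 15 members in basal, wing and superficial cells, with 1 point per library, lines through the means and values of 0 (St3gal1 in basal cells of library 1) not drawn. Galnt3, St6galnac1, Mgat4a and Mgat3 step up at each layer and Cmas mainly at the first (its second step turns to -0.55 with library totals alone), St6galnac2, St3gal2, St6gal1 and B3galt6 step down, and C1galt1, St3gal1 and B3gnt7 are high in superficial cells alone of the 3 layers.

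Of the fucosyltransferases 3 of 4 tested rose from basal to wing cells, and 1 rose and 2 fell from wing to superficial. Fut9, which makes the Lewis X group, read 0.0623, 0.273 and 0.0318 in basal, 0.65, 0.581 and 0.58 in wing and 15.8, 17.2 and 17.7 in superficial cells. Superficial values lay above both inner layers (log2 fold change 4.74 ± 0.13 (SE), adjusted p = 5.82e-14), and the basal values rest on 11 UMIs. Fut8, which puts core fucose on N-glycans, fell from 5.15, 5.63 and 6.39 in wing to 1.93, 2.43 and 2.34 in superficial cells without overlap. Fut4, another Lewis X enzyme, read 5.55, 6.79 and 8.08 in wing and 5.24, 7.36 and 7.94 in superficial cells, which overlap. Fut11 read 9.27, 9.47 and 7.88 in wing and 6.89, 6.79 and 6.83 in superficial cells.

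Sialylation genes went both ways across the layers: of 8 tested 3 rose and 4 fell from basal to wing cells, and of 9 tested 5 rose and 4 fell from wing to superficial. St6galnac1, which caps the first GalNAc and makes sialyl-Tn, read 44.02, 46.8 and 59.4 CPM in basal, 215, 222 and 250.4 in wing and 688, 756 and 728 in superficial cells. St6galnac2, an enzyme of related specificity, went the other way with 99.2, 113 and 79.2 in basal, 24.5, 30.1 and 18.7 in wing and 9.997, 12.5 and 8.201 in superficial cells. In both genes the 3 layers did not overlap. The steps of St6galnac1 were 2.15 and 1.60, and those of St6galnac2 -2.06 and -1.31 (adjusted p from 6.38e-12 to 5.97e-10 for the latter gene). Both lie on the minus strand of chromosome 11 (GRCm38, GENCODE M21), at 116765025 to 116775507 for St6galnac1 and 116675303 to 116694868 for St6galnac2. The table also lists a second entry of the symbol St6galnac2, and the annotation a second gene inside the first, so reads of St6galnac2 may be split and its level is uncertain.

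The enzymes that sialylate core 1 also went opposite ways. St3gal1 read 0, 0.205 and 0.0954 in basal, 0.0812, 0.124 and 0.0915 in wing and 29.2, 26.2 and 27.3 in superficial cells, where it had 1166 UMIs against 25 in wing cells. Superficial values stood far above the rest (log2 fold change 8.05 ± 0.15 (SE), adjusted p = 7.33e-16). St3gal2 fell from 16.99, 16.9 and 14.3 through 2.68, 3.46 and 3.05 to 1.52, 0.809 and 0.976. The 3 layers did not overlap (log2 fold change -2.45 ± 0.09 (SE), adjusted p = 1.83e-10, then -1.51). St6gal1, which caps N-glycans, fell likewise from 9.41, 7.47 and 10.9 in basal to 2.61, 2.42 and 2.52 in wing and 1.17, 0.404 and 0.586 in superficial cells (-1.94 and -1.85). St3gal5, which makes the ganglioside GM3 and so acts on lipids, peaked in wing cells at 16.03, 16.4 and 20.96, against 6.45, 7.06 and 13.4 in basal and 4.62, 3.88 and 5.34 in superficial cells. Cmas, which makes the activated sialic acid that all these enzymes use, read 22.6, 21.4 and 25.3 in basal, 238, 242 and 262 in wing and 318, 357 and 369 in superficial cells. It rose by 3.37 at the first step, and its second step of 0.43 turned to -0.55 with library totals alone.

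Conjunctival cells, a mucous epithelium beside the cornea, differed from both outer corneal layers. Against wing cells 19 of 41 members were higher and 8 lower, where 53.2% of all genes were called (27.0% higher, 26.2% lower), and against superficial cells 19 of 39 were higher and 12 lower, where 72.4% were called (36.4% higher, 36.0% lower). With library totals alone the splits were 16 and 11 against wing cells, and 30 and 7 against superficial cells, where that scaling moves the median of all genes by 0.78. St3gal4, which sialylates N-acetyllactosamine, read 52.5, 61.7 and 39.2 in conjunctival, 4.07, 3.15 and 2.28 in superficial and 0.684, 0.844 and 0.275 in wing cells. Conjunctival values did not overlap any other epithelial class (log2 fold change 6.45 ± 0.14 (SE), adjusted p = 1.12e-10; 4.08 against superficial). Fut9 read 38.6, 32.7 and 48.9, above the superficial values given earlier (log2 fold change 1.32 ± 0.10 (SE), adjusted p = 1.23e-09; 6.05 against wing). Fut8 read 13.4, 11.8 and 12.2 (2.56 against superficial) and Fut4 10.6, 14.8 and 15.1 (0.99 against wing). All 4 fucosyltransferases tested were higher than in superficial cells.

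Cmas was highest of all classes in conjunctival cells at 574, 535 and 651, with 1.24 against wing and 0.83 against superficial. Values of B3gnt8 were 114, 133 and 114, also the highest class (1.27 against superficial). B4galt3 read 24.5, 26.2 and 21.2 against 9.03, 10.4 and 8.07 in superficial cells, and Mgat5 11.1, 16.8 and 15.3 against 3.93, 3.48 and 3.97. Neither gene overlapped between these classes. Members lower than in superficial cells were led by the core 1 pair: C1galt1 read 1.799, 2.17 and 0.847 (log2 fold change -4.31 ± 0.16 (SE), adjusted p = 1.41e-14) and St3gal1 1.42, 1.94 and 0.753 (log2 fold change -4.21 ± 0.18 (SE), adjusted p = 1.15e-13). Galnt3 read 150.2, 141 and 135, which is below superficial (-1.95) and above wing cells (1.04). B3gnt7 read 2.37, 2.01 and 1.13 and St6galnac1 212, 239 and 218, and both were lower than in superficial cells. Mgat4a read 147, 155 and 167, with a conjunctival minus superficial value of -0.28 that turned to 0.49 with library totals alone.

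The 5 conjunctival markers summed to a mean of 15360.1 CPM in the conjunctival class and 11855 in superficial cells, with Krt4, Krt19 and Krt8 higher in the former and Krt13 and Krt7 in the latter. Of 4 goblet cell markers 2 were measured, with Agr2 at a mean of 48.9 CPM in conjunctival cells and Spdef at 0 there. In superficial cells Agr2 averaged 1.19, and Spdef had 107 UMIs, at 4.83, 1.46 and 1.24 CPM in libraries 1, 2 and 3. Immune markers summed to 0.556 in conjunctival cells. The part of these cells in the results was not tested.

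**Figure D4:**
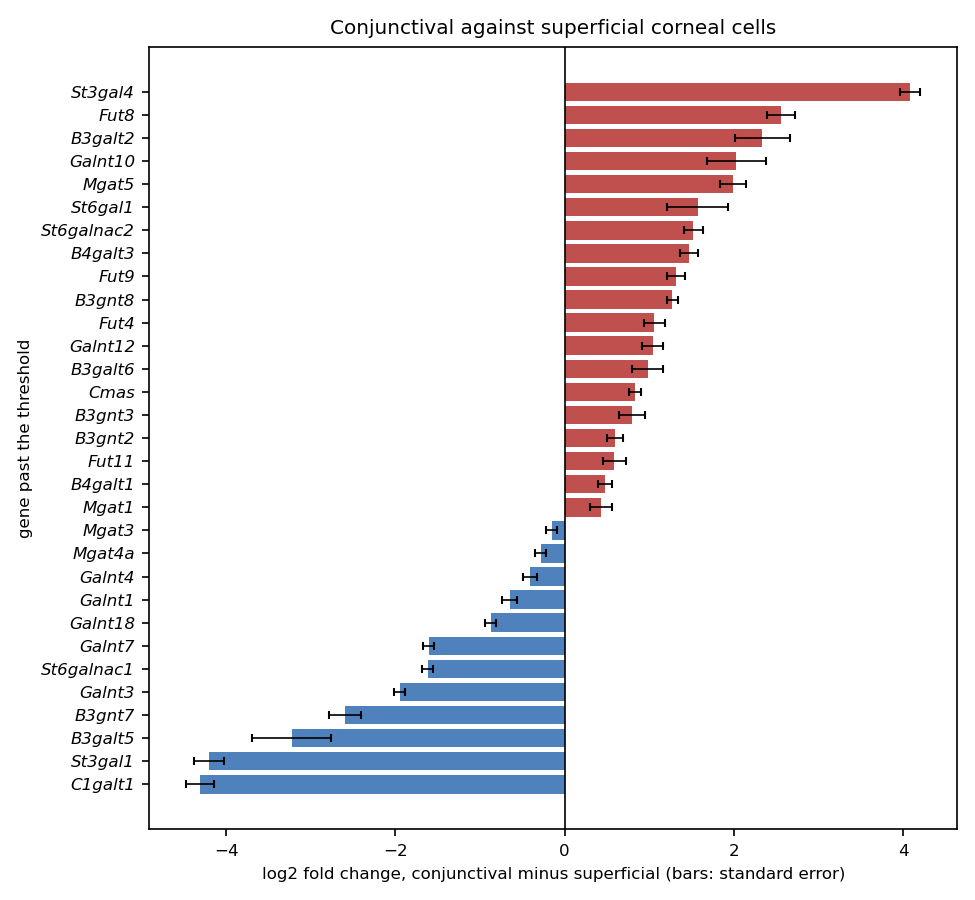
Log2 fold change, conjunctival minus superficial cells, of the 31 members past the threshold, with bars for the fit and whiskers for the derived standard error. St3gal4 is the longest bar to the right at 4.08 and C1galt1 to the left at -4.31; Mgat4a, Mgat3, Galnt4 and Galnt1 change side with library totals alone.

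Limbal cells, the class with the stem cell marker, had 16 of 41 members higher and 10 lower than basal cells, where 40.2% of all genes were called (21.4% higher, 18.8% lower). Of the 41 members, 12 were higher by more than 1 on the log2 scale and past the threshold, where 11.4% of all genes were. B3galt2, a galactosyltransferase that extends chains, read 21.9, 10.96 and 13.7 in limbal cells against 1.496, 2.05 and 3.88 in basal cells. No other class reached the limbal values (log2 fold change 2.69 ± 0.43 (SE), adjusted p = 0.00603). Gcnt2, which makes I branches, had 27 UMIs in limbal cells (1.96, 3.16 and 1.83 CPM) and 1 in basal cells, with 13 in conjunctival cells. The ratio of limbal to basal was 236 with a 95% exact counting interval of 38.8 to 9648. Against the 7 UMIs of wing cells the ratio was 93.1 (39.6 to 253.2). Both intervals pool the UMIs of the 3 libraries and leave out the spread between libraries. Gcnt2 has several alternative first exons, which a 3′ kit does not tell apart.

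St3gal4, Fut9, Mgat4a, Mgat3, B3gnt7, Cmas and Galnt3 were also high in limbal cells, and each had a higher mean in conjunctival or superficial cells. St3gal4 read 18.9, 9.099 and 10.96 in limbal cells (4.77 against basal) and Fut9 5.87, 5.01 and 7.31 (5.51). Mgat4a read 23.2, 26.4 and 29.7 (log2 fold change 3.10 ± 0.16 (SE), adjusted p = 1.18e-22) and Mgat3 35.2, 23.03 and 29.7 (2.55). None of these 4 overlapped between limbal and basal cells. B3gnt7 read 2.61, 0.929 and 0.914 from 15 UMIs (3.54), Cmas 86.1, 65.00 and 118 (1.90) and Galnt3 30.3, 31.01 and 24.7 (1.64). B4galt4, named after its values were seen, had its highest epithelial mean in limbal cells with 1.31, 0.557 and 0.914 from 9 UMIs, against 0.249, 0.307 and 0.223 in basal cells (1.68, adjusted p = 0.0493 by edgeR's quasi-likelihood test). Lower in limbal cells were St3gal5 (1.31, 2.23 and 5.94, -1.61), St3gal2 (11.1, 5.39 and 11.4, -0.94), St6gal1 (-0.85), B3galt6 (-0.70), Galnt1 (-0.68) and St6galnac2 (-0.67).

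The 5 conjunctival markers were all detected in limbal cells and summed to 1429, 2002 and 1851 CPM, against 33.8, 61.7 and 24.1 in basal cells. The 4 dividing markers summed to 207 and 16.9, the median mitochondrial share was 2.42% and 1.90%, and their part was not tested. Of 737 limbal cells 181 carried 3 or more UMIs of Krt4, Krt13 and Krt19 together after each cell was thinned to 2000 UMIs. Without them, 13 of 40 members tested were higher and 10 lower. Calls over all genes went from 4876 of 12116 tested with all limbal cells to 3793 of 11996 without those cells. B3galt2 stood at 2.94, Gcnt2 at 6.96, St3gal4 at 3.99, B3gnt7 at 3.97, Mgat3 at 2.00, Fut9 at 3.70, Mgat4a at 1.88, Galnt3 at 1.08 and Cmas at 0.69 on the log2 scale, all past the threshold. B4galt3 (0.53 to 0.22), Galnt12 (1.19 to 0.76), Galnt2 (-0.42 to -0.39) and St6gal1 (-0.85 to -0.51) were no longer called, so that the value of Galnt2 hardly moved. Galnt7 was called lower, and B3gnt8 turned from 0.27 to -0.45.

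**Figure D5:**
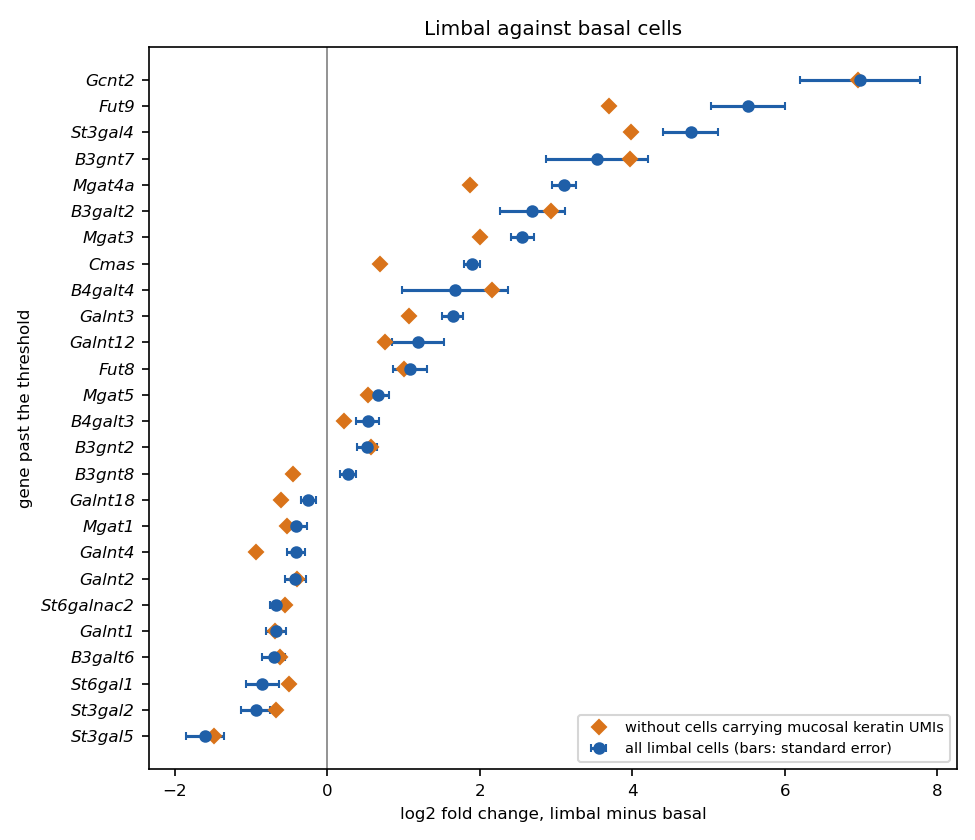
Log2 fold change, limbal minus basal cells, of the 26 members past the threshold: circles with standard errors for all 737 limbal cells, diamonds without the 181 that carried mucosal keratin UMIs. Gcnt2 and B3galt2 keep their place, Cmas, Mgat4a and Fut9 move toward 0, and B3gnt8 crosses it.

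TAC2 cells, the class with most dividing cells, had 5 of 37 members higher and 11 lower than basal cells, against 48.5% of all genes called (24.9% higher, 23.7% lower). The changes were small: St6gal1 fell most, to 5.19, 4.38 and 6.13 from 9.41, 7.47 and 10.9 CPM (log2 fold change -0.81 ± 0.11 (SE), adjusted p = 1.78e-06), and St6galnac2 read 71.5, 75.8 and 61.2 against 99.2, 113 and 79.2 (-0.46). Galnt18 read 38.8, 39.4 and 38.6 against 52.8, 58.8 and 51.5 (-0.46), without overlap. Among the 5 higher members St3gal4 rested on 55 and 42 UMIs and overlapped (1.39). The 5 higher calls depended on the fit. Without the library block edgeR called 0 higher (0 at an unadjusted p under 0.05) and 5 lower. DESeq2, which also had the library in its design, called 0 higher (2 unadjusted) and 5 lower. The reason was not tested. Without library 1 or library 2, 3 and 2 were higher. TAC1 cells were given no test. Their levels of Galnt3 were 14.4, 16.4 and 9.902, and those of St6galnac2 were 93.2, 101 and 74.8.

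The 114 immune cells of 38111 were too few for a test, and 17 members were at 0 UMIs in them. St3gal6, another sialyltransferase of N-acetyllactosamine, had 30 of its 56 UMIs there, at 125, 66.4 and 141 CPM of the class's own total. St6galnac4 had 13 of 23 UMIs in immune cells and B4galt6, the lactosylceramide synthase, 10 of 13. Transcripts of the epithelium were present in this class, with Krt12, the corneal keratin, at 6125 CPM and Aldh3a1, a corneal crystallin, at 5880.5, so levels of widely expressed members are not given for it. Galnt6, Galnt16 and St6galnac3 had fewer than 10 UMIs in all cells.

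Libraries differed little within a class. Over 215 values of 39 members with at least 30 UMIs in each library, the highest library exceeded the lowest by a median of 1.26 times, and by more than 2 times in 7 values. Library 3 was the highest in 6 of those 7. St3gal5 gave 3 of them, with 6.45, 7.06 and 13.4 in basal, 5.94, 6.77 and 12.4 in TAC1 and 3.31, 3.797 and 7.34 in conjunctival cells, so that library 3 stood apart from libraries 1 and 2 in each. B3galt2 gave 2, in basal and wing cells (1.73, 2.48 and 3.75 in the latter). B3galt5 was lower in library 3 in superficial cells. Library 3 pooled the most mice and has the lowest median depth, which cannot be told apart. Its mice were male, as were those of library 1.

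The genes that supply the sugars and carry them were read from a list of 21 donor and transporter genes. Of these 13 rose and 8 fell from basal to wing cells, and again 13 rose and 8 fell from wing to superficial. Of all genes tested, 77.6% (38.8% higher, 38.7% lower) and 79.7% (37.9% higher, 41.8% lower) were called at these steps. The median log2 fold change of the list at the second step was 0.42. Library totals alone moved the median of all genes by -0.98 there, and genes outside the rule were not read under that scaling. Gfpt1, the entry enzyme of the hexosamine pathway, read 16.7, 17.6 and 15.7 in basal, 78.4, 84.1 and 81.3 in wing and 950.3, 934 and 910.3 in superficial cells. The layers did not overlap (log2 fold change 3.46 ± 0.06 (SE), adjusted p = 4.20e-16). Gfpt1 was lower in conjunctival than in superficial cells (-2.18), as was B3gntl1, a relative of the extension enzymes that the rule did not take (-3.18). Of 6 genes of near spelling tested, 2 rose and 3 fell from wing to superficial, with a median log2 fold change of -0.46. B4galnt1, the largest rise among them and a ganglioside GalNAc transferase outside the rule, read 12.9, 13.3 and 8.604 in wing and 182, 178 and 147 in superficial cells (3.83).

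Of 9 acceptor mucins on the list 5 were measured, without Muc16, Muc21, Muc5ac and Muc5b. All 5 rose from basal to wing cells, and 4 rose and 1 fell from wing to superficial. Among all genes tested, 38.8% rose at the first step, and 37.9% rose and 41.8% fell at the second. Muc4, a large membrane mucin, read 8.32, 11.5 and 5.63 in basal, 525, 426 and 473 in wing and 5235, 4411 and 4194 in superficial cells. Its 3 layers did not overlap (5.77 from basal to wing). Muc1, another membrane mucin, read 14.7, 12.2 and 9.397 in wing and 212, 179 and 183 in superficial cells (3.94), and 205, 178 and 164 in conjunctival cells. Muc15 was the one that fell at the second step, from 122, 111 and 166 to 42.6, 46.3 and 83.3, and is named after its values were seen. In limbal cells all 4 mucins tested were higher than in basal cells, where 21.4% of all genes tested were. Muc1 at 4.49 and Muc4 at 3.93 led them, beside the conjunctival marker sums given for limbal cells.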

How the data were processed

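Corneal epithelium of 3 pooled samples was sequenced with the 10x Genomics 3′ v3.1 kit, per the labels' protocols. The deposited matrix holds UMI counts as whole numbers per gene and cell, and a deposited table gives the class of each cell. Cell Ranger 5.0.0, Seurat 4 and build mm10 are named, with no role or order, per the submitters' processing notes. For cell filters, doublets and the labelling method, nothing was given in the sources used here. Libraries 2 and 3 were matched by number and library 1 by elimination, and 0 columns had no sample.

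Counts were summed per library and class (35442 to 97065277 UMIs). edgeR 4.0.16 (R 4.3.3) used TMM, filterByExpr, a robust quasi-likelihood fit and the library as a block, since both sums of a pair come from the same animals. It was tested on simulated data. Levels use TMM over 21 epithelial sums, and the immune class its own total. Each comparison took TMM factors from its own sums, so a log2 fold change can differ from that of the levels. Sequences were read from RefSeq (GRCm38.p6), coordinates from GENCODE M21.

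Members and lists were chosen with earlier results of these data known. Per comparison, full tests were planned for up to 6 members in each direction with the same sign in 3 of 3 libraries and the largest change. The 2 most abundant of a role were to be added. Only some of these carry a full test above, and the rest a log2 fold change or levels alone. Alternatives were no block, DESeq2 1.42.0, RLE scaling, library totals, no filter, a joint fit of 7 classes, cells thinned to 2000 UMIs (609 shallower cells left out), without the 5% of cells with most UMIs, without keratin-carrying limbal cells, and each library left out.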

Additional observations from a re-analysis of the deposited data

How the results depend on the processing

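Among 3079 recomputed tests of single members, 2731 kept direction and side of the threshold, 202 lost the call, 44 gained it and 24 that were called in either fit changed sign. A further 78 changed sign without passing the threshold in either fit. With library totals alone the sign changed from wing to superficial for B4galt1 (-0.76), Cmas (-0.55), Galnt4 (-0.72), Mgat2 (-0.70), Galnt1 (-0.92) and C1galt1c1 (-0.54), and from basal to superficial for B4galt1 (-0.75), B3gnt8 (-0.50), B3gnt3 (-0.19), Fut4 (-0.10), B3gnt2 (-1.07), Mgat2 (-0.94), B3galt4 (-1.10), Galnt1 (-1.04) and C1galt1c1 (-0.41). From superficial to conjunctival it changed for Mgat4a (0.49), Galnt2 (0.66), Galnt4 (0.36), Mgat2 (0.59), Mgat3 (0.63) and Galnt1 (0.13). Library totals also gave 23 members lower in superficial than basal cells, and 30 higher and 7 lower in conjunctival than superficial cells. B3gnt8 was -0.45 in limbal against basal cells without keratin-carrying cells.

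With cells thinned to 2000 UMIs, Cmas turned to -0.0591 in TAC2 against basal cells and Galnt18 to -0.0111 in conjunctival against wing cells. Thinning left 7 higher and 5 lower in limbal, 1 higher and 6 lower in TAC2, and 15 higher and 7 lower in wing cells, each against basal, and 5 lower in conjunctival against wing cells. The thinned sums hold fewer UMIs. Without the replicate block TAC2 against basal had 0 higher and 5 lower. DESeq2 gave 0 higher and 5 lower there, and 6 lower in limbal cells. The cause of these changes was not tested.

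Leaving out 1 library gave 13 to 14 higher and 7 to 9 lower in limbal, 2 to 5 and 9 to 10 in TAC2, 20 to 23 and 10 to 10 in wing, and 20 to 22 and 13 to 15 in superficial cells, each against basal. It gave 17 to 18 and 17 to 19 for superficial against wing, 18 to 20 and 6 to 9 for conjunctival against wing, and 18 to 20 and 11 to 12 for conjunctival against superficial. Depth limits the 15 of 58 members with under 100 UMIs most, and Gcnt2 and B3gnt4 among them are given with a counting interval and a floor.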
